A study of Mus musculus with 6 samples.

Results

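The loci described here are stretches of the mouse genome that the array names only by position and strand. All non-control probes whose name has the form chromosome, start, end and a strand letter (F or R) were taken, which gave 16181 of the 55681 probes on the array (29.1%). Probes of one name were averaged, and the probes made up 4607 loci among 34844 features with 1 name. The loci cover 3540 intervals, of which 1067 are named on both strands, with 2318 F loci and 2289 R loci. A locus has 1 to 10 probes (median 3) and is 62 to 7128487 bases long (median 10676). Positions are given on NCBI37/mm9, the build named in the files.

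The RNA came from 5 month old males of the C57BL/6 background. In the group labelled AROM+ (3 mice), a transgene raised the expression of aromatase, which converts androgens to oestrogens. The 3 wild-type (WT) mice were the controls. Each array held RNA of 1 whole testis, labelled with Cy3, and the promoter that drives the transgene is not given in the sources used here.

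Long noncoding RNAs are transcripts with no protein product. Many are spliced and polyadenylated like messenger RNAs, many are low in level and found in few cell types, and some start from the same region as a neighbouring gene on the other strand. The testis, above all its meiotic and postmeiotic germ cells, is known for transcribing more such loci than other tissues.

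Values are log2 of the background-corrected spot intensity relative to the 75th percentile of the array, called scaled signal here. Differences are AROM+ minus WT with the standard error (SE) of limma, over 3 arrays per group. A feature was called higher or lower at a Benjamini-Hochberg adjusted p under 0.05 over all 28925 features tested. Of the 16181 locus probes, 10288 (63.6%) were well above background on every array of at least 1 group and were kept, against 81.9% of the other probes. Of these, 589 passed through WT alone and 212 through AROM+ alone. They gave 3953 tested loci (85.8%), and the other 654 loci had no kept probe. Each array had 62.3% to 69.6% of its locus probes well above background. Over the tested loci, arrays of one group correlated with r = 0.986 to 0.993 and arrays of different groups with r = 0.970 to 0.984, and loci are not independent replicates. All WT arrays lay in one row of the slide and all AROM+ arrays in the other, so slide row and genotype cannot be told apart.

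Probes of loci with large differences are printed 5′ to 3′ as deposited, each 60 bases long and each on the strand of its locus. They show what was hybridised at loci that have no gene name, and which of them share sequence with a gene probe of the array. At chr1:175653557-175671940 R, the largest rise among loci measured on all 6 arrays, the probe at chr1:175653663-175653722 has in capitals the 42 bases it shares with the probe of Ifi207, an interferon-inducible gene. At chr2:119697845-119719245 F, the probe at chr2:119703618-119703677 has in capitals the 38 bases that are complementary to the probe of Fabp5, a fatty acid binding protein gene. The other rises shown share no such run with a gene probe.
chr1:175653557-175671940 R: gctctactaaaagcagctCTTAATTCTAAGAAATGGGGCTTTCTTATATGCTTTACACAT
chr2:119697845-119719245 F: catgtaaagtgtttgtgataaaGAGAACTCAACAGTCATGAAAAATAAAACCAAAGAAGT
chr2:60581618-60589907 F: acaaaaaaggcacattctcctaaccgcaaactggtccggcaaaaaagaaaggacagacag
chr14:78223544-78224961 R: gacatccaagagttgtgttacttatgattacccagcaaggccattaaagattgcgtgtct
chr5:26333765-26338143 F: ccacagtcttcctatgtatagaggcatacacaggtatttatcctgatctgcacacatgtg
chrX:50400250-50410825 R: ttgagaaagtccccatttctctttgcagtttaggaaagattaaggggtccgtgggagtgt

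The falls are shown by 6 probes. The pair at chr13:74521146-74528671 comes from opposite strands of one interval, and the capitals mark the 50 bases over which the probes are complementary. The others have no capitals.
chr5:104998375-105041300 R: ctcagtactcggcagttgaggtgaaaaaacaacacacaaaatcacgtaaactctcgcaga
chr12:4409025-4437250 F: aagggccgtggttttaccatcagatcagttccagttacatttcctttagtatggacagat
chr17:6324860-6326762 F: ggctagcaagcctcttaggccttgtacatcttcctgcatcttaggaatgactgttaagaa
chr4:131903928-131909578 R: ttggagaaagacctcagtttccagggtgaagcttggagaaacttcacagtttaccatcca
chr13:74521146-74528671 F: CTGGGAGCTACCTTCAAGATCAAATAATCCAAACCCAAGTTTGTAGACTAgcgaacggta
chr13:74521146-74528671 R: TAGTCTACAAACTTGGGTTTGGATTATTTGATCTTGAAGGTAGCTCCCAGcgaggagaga

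Most loci that differed between the genotypes were lower in AROM+ testes, and the falls were small. With limma, 1328 of the 3953 loci (33.6%) were lower and 247 (6.25%) were higher, beside 31.0% lower and 14.7% higher over all 28925 features. The share of lower loci lies near that of all features, and the share of higher loci lies below it. The median difference was −0.26 over the loci and −0.18 over all features. Called rises of 2-fold or more were found at 52 loci and called falls of that size at 40, where all features gave 4.91% and 1.32%. The groups did not overlap in 2104 loci (53.2%), beside 59.2% of all features. No test of the loci against other features was made, so these shares are a description.

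Under 5 other ways of background correction or scaling the median of the loci stayed below that of all features. It ran from −0.31 (spike-in scaling, all features −0.23) to −0.20 (quantile normalization, all features −0.09). Spike-in scaling left 139 higher loci, and averaging all probes with no filter left 851 lower ones. Without WT replicate 3 the counts were 157 higher and 650 lower, and without WT replicate 1 they were 167 and 821.

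**Figure D1:**
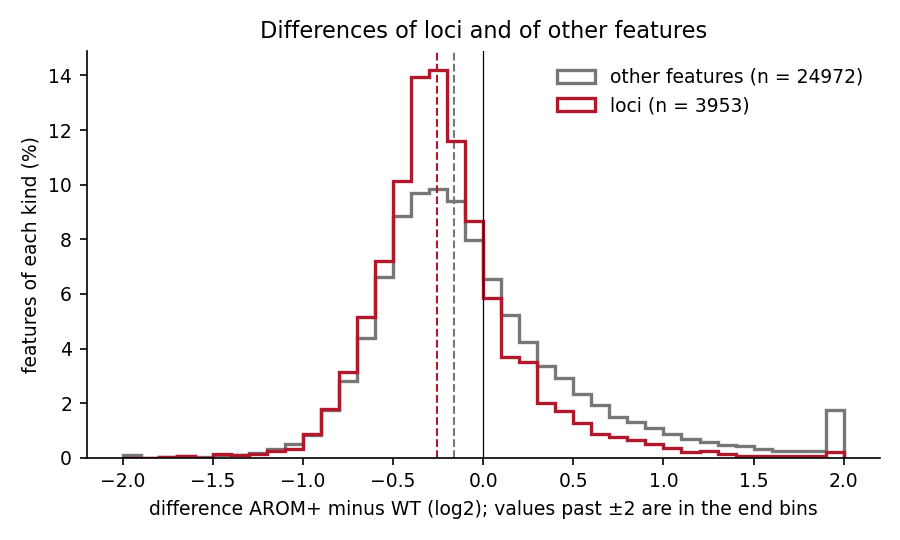
Distribution of the AROM+ minus WT difference (log2, horizontal axis) over the 3953 tested loci and the 24972 other features (percent of each kind, vertical axis), with dashed lines at the medians of −0.26 and −0.16. The loci crowd between −0.5 and 0 and have a thinner tail to the right.

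Named genes of the same array gave other proportions. Among 17266 protein-coding genes 20.3% were higher and 28.9% lower, with a median difference of −0.11. Among 1070 genes that RefSeq classes as long noncoding, 7.10% were higher and 46.9% lower, with a median of −0.38. The loci resemble the noncoding genes in their share of rises and lie between both kinds of gene in their share of falls.

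The loci were dimmer than the other features, with a median scaled signal of −3.94 against −1.22. With all features split into 4 equal bins by mean signal, 27.7% of the loci in the dimmest bin were lower and 5.15% higher, against 23.4% and 13.6% of the other features. Loci of the next bin were lower in 36.1% and higher in 6.51%, against 25.3% and 21.4% of the other features. In the bin after that the values were 47.1% and 9.85% for loci against 29.8% and 21.0%. In the brightest bin they were 38.4% and 5.68% against 41.5% and 8.32%, so that the loci gave the higher share of falls in the 3 dimmer bins and not in the brightest. Locus probes also held more G and C bases, with a median of 45% against 43.3%. Probes with at most 35% had a median difference of −0.14 at loci and −0.06 elsewhere, and those above 50% had −0.28 and −0.23. The part of base composition in the differences was not tested.

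Both strand letters behaved alike in number. Of 1992 F loci 122 were higher and 689 lower, and of 1961 R loci 125 were higher and 639 lower. On the X chromosome 12.6% of 135 loci were higher and 23.7% lower, with a median of −0.21, and on the autosomes 6.02% of 3818 were higher and 33.9% lower. Of the protein-coding genes 35.7% were higher and 16.7% lower on X, against 19.7% and 29.4% on the autosomes.

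Marker genes of several cell types moved with the genotype. All 9 measured macrophage markers were higher in AROM+ (median 2.79), though Csf1r was lower by −0.44 (adjusted p = 0.0261) with its brightest probe alone, and the mean scaled signal of the list ran from −1.54 to −1.01 in WT and from 1.35 to 2.28 in AROM+. All 5 endothelial markers (median 1.45) and all 6 stroma and matrix markers (median 1.87) were higher as well. All 6 round spermatid markers were lower (median −0.48), with a mean signal of 2.77 to 2.98 in WT and 2.35 to 2.43 in AROM+, as were 4 of 6 spermatocyte markers (median −0.42) and 3 of 6 elongating spermatid markers (median −0.36). Quantile normalization left 3 round spermatid, 2 spermatocyte and 0 of 6 elongating spermatid markers called with limma (1 of the last at an unadjusted p under 0.05), with medians of −0.26, −0.24 and −0.13. Spike-in scaling left 4, 3 and 1. Of the other lists, 4 of 7 Leydig cell, 3 of 8 Sertoli cell, 2 of 6 spermatogonia and 0 of 4 peritubular markers were called with limma, all of them higher, and 1 peritubular marker had an unadjusted p under 0.05. No marker has a true zero on this array. In whole testis, fewer cells of a type and less RNA per cell cannot be told apart, and the part of cell makeup in the changes of the loci was not tested.

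The largest rises among loci measured on all 6 arrays lay in the Ifi200 gene cluster of chromosome 1, whose genes code for interferon-inducible proteins, several of them sensors of DNA. The locus chr1:175653557-175671940 R read −3.17, −3.06 and −3.21 in WT and 0.00, −1.30 and −0.73 in AROM+. The groups did not overlap, which the rule for naming the largest rises and falls required of each of them. AROM+ replicate 1 was the highest. The difference was 2.47 (SE 0.30, adjusted p = 0.00401), a fold of 5.55, and its 3 probes gave 2.14 to 2.69. Its nearest gene is Ifi207, whose probe lies inside the interval on the same strand and shares the 42 bases shown above, and Ifi207 itself rose by 2.42.

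Overlapping loci of that interval gave like values. The locus chr1:175654606-175672031 R read −2.98, −2.80 and −2.88 in WT and 0.13, −1.24 and −0.77 in AROM+, a difference of 2.26. Its F partner, on the strand opposite to Ifi207, read −2.60, −2.31 and −2.51 in WT and 0.36, −1.06 and −0.46 in AROM+, a difference of 2.09 (adjusted p = 0.00586). The locus chr1:175660642-175671878 R rose by 2.14. Replicates thus took the same order on both strands, with AROM+ replicate 1 highest and replicate 2 lowest, and overlapping loci are not independent of each other.

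Further along, chr1:175705225-175717250 F read −4.75, −4.64 and −4.65 in WT and −1.87, −3.58 and −3.23 in AROM+, a rise of 1.79 (adjusted p = 0.0147), and Ifi204 lies 27.5 kb away. Among its own probes lies that of LOC100504287, on the other strand, which is complementary to one of them over 37 bases and rose by 1.95 (adjusted p = 0.0117). Its R partner rose by 1.35 (adjusted p = 0.0248). AROM+ replicate 1 was again well above the others at this interval. Without that testis chr1:175653557-175671940 R gave 2.14, chr1:175654606-175672031 gave 1.87 on R and 1.71 on F, chr1:175660642-175671878 R gave 1.78 and chr1:175705225-175717250 F gave 1.28. Each of these 5 was still called, at adjusted p from 0.00434 to 0.00783.

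The stretch from Pyhin1 to Ifi202b, chosen for a map after its values were seen, spans 321 kb and holds 6 loci, all of them higher (median 2.11). All 26 locus probes were kept, 24 were called higher, and they ranged from 1.13 to 2.69. Of 12 tested other features 7 were higher and 2 lower. Ifi204 rose by 2.05, Mnda by 2.03, Mndal by 1.35 and Ifi203 by 1.19, while Gm7897 was lower by −1.35 and 1 feature without a gene name was lower too. Pyhin1 (−0.29, adjusted p = 0.0614) and Pydc3 (0.33, adjusted p = 0.158) were not called. Ifi202b was high in AROM+ replicate 1 alone (0.47 against −5.33 and −5.76) and was not called (adjusted p = 0.446).

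**Figure D2:**
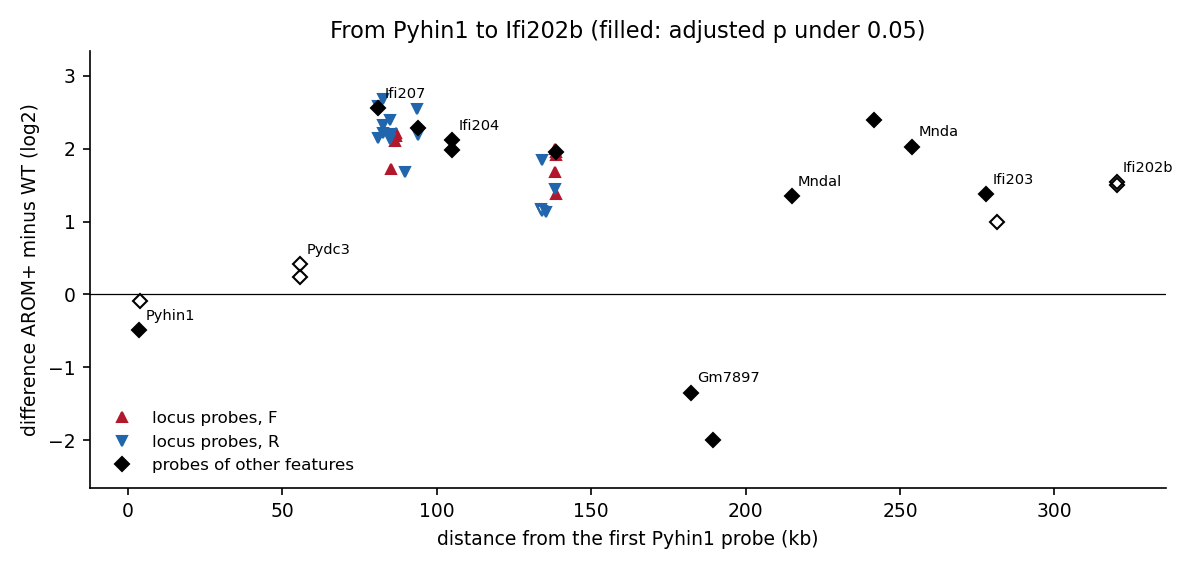
Difference AROM+ minus WT (log2, vertical axis) of each kept probe by its distance in kb from the first Pyhin1 probe (horizontal axis), with locus probes as triangles by strand and probes of other features as diamonds, filled where the adjusted p was under 0.05. All locus probes lie between 1.13 and 2.69, among Ifi207 and Ifi204 probes of like size.

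Outside that cluster, chr2:119697845-119719245 F was the largest rise among loci measured on all 6 arrays. It read −0.82, −0.34 and −1.10 in WT and 1.71, 1.04 and 2.13 in AROM+, and differed by 2.38 (SE 0.31, adjusted p = 0.00435). Its 4 probes gave 2.25 to 2.57, and no gene probe lies within 50 kb. One of its probes is complementary to the Fabp5 probe over the 38 bases shown above. The match was sought among array probes only, so whether its other probes match Fabp5 outside that probe was not tested. Fabp5 rose by 1.99 (SE 0.24, adjusted p = 0.00393), and its own probe does not lie within 50 kb of the locus.

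A pair of nested loci on chromosome 2 rose beside Rbms1, an RNA-binding protein gene that was not called (−0.37, adjusted p = 0.0554). The locus chr2:60581618-60589907 F read −2.99, −3.07 and −3.15 in WT and −0.83, −1.38 and −1.75 in AROM+, a rise of 1.75 (adjusted p = 0.00419), with 5 probes between 1.46 and 1.98. The locus chr2:60581618-60589968 F, which ends further on, read −5.60, −5.72 and −5.86 in WT and −2.96, −3.80 and −4.24 in AROM+, a rise of 2.06. WT varied less than AROM+ at both loci.

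On chromosome 7, chr7:111526943-111545093 R has a single probe, which shares 27 bases with the probe of Trim30c. It read −4.03, −3.92 and −4.04 in WT and −1.49, −2.43 and −2.62 in AROM+, a rise of 1.81. Trim30a, a gene of the same tripartite motif family at 12.5 kb, rose by 1.80 (adjusted p = 0.00747). On chromosome 14, chr14:78223544-78224961 R read −4.86, −4.62 and −4.62 in WT and −2.70, −2.91 and −3.40 in AROM+, a rise of 1.70 (adjusted p = 0.00366) with 3 probes between 1.23 and 2.05. Its neighbour Dnajc15, a mitochondrial co-chaperone gene 1.13 kb away, was lower (−0.35, adjusted p = 0.0186).

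**Figure D3:**
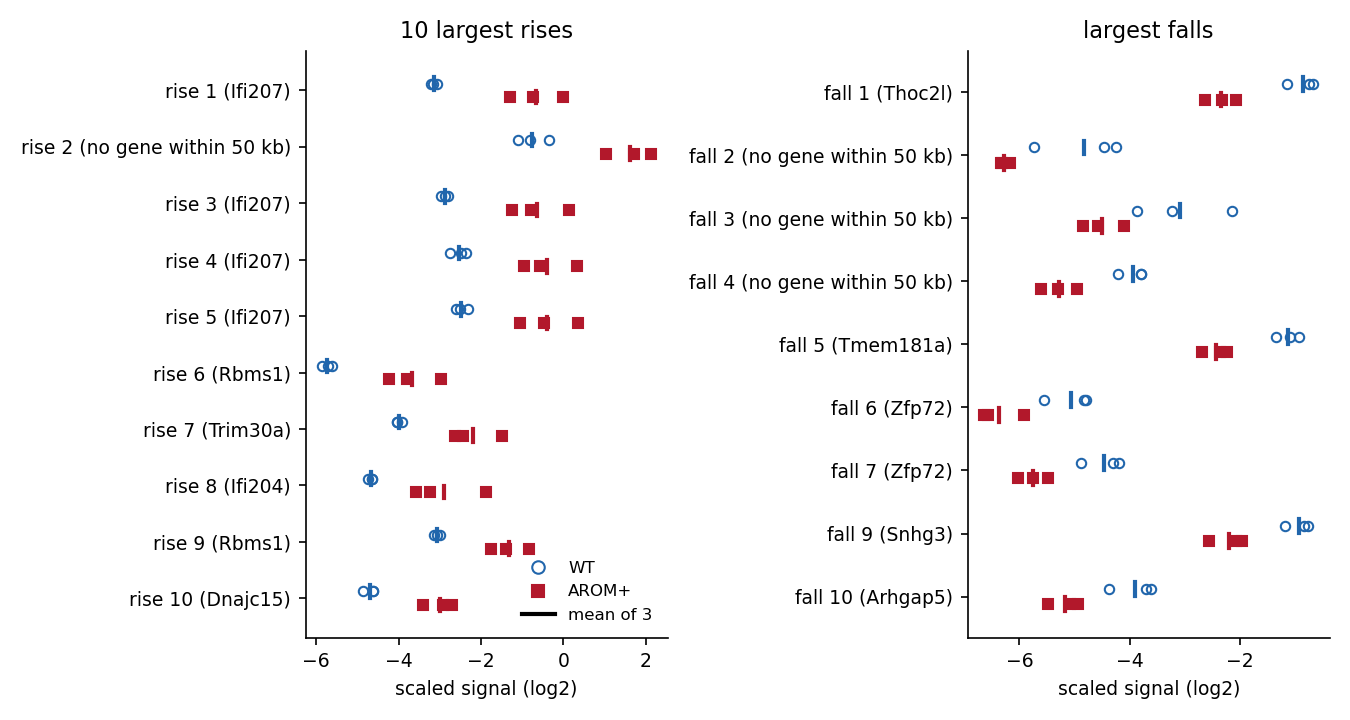
Scaled signal (log2, horizontal axis) in each of 3 WT (circles) and 3 AROM+ (squares) testes, with the mean of 3 as a bar, for the 10 largest rises (left) and 9 of the 10 largest falls (right) among called loci measured on all 6 arrays without overlap, labelled by nearest gene. Signals of different loci come from different probes and are not to be compared, and AROM+ replicates spread more widely at the rises than WT replicates.

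A larger difference was found at a locus with 1 of its 3 probes below background on some arrays, named here after its values were seen. That probe was above background on 1 of 3 WT and 3 of 3 AROM+ arrays, so it passed the filter through AROM+ alone. The locus chr5:26333765-26338143 F read −5.48, −5.92 and −6.01 in WT and −2.12, −2.60 and −1.49 in AROM+. Its difference of 3.74 (SE 0.29, adjusted p = 0.00222) was the highest of the tested loci, and its 3 probes gave 3.35 to 3.93. A probe of Gm5067 lies inside the interval and was not called (0.30, adjusted p = 0.0617).

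The largest rise on the X chromosome, also picked after its values were seen, was on both strands of chrX:50400250-50410825. The R locus read −4.01, −3.53 and −3.66 in WT and −1.99, −2.11 and −2.15 in AROM+, a rise of 1.65 (SE 0.14, adjusted p = 0.00258) in which 5 of 5 kept probes were called. The F locus read −3.31, −3.20 and −3.42 in WT and −2.13, −2.44 and −2.06 in AROM+, a rise of 1.09 (adjusted p = 0.0038). Its 8 probes ranged from −0.28 to 1.93, and 6 of them were called. The F probe that gave 1.15 was above background on 1 of 3 WT and 3 of 3 AROM+ arrays. It passed the filter through AROM+ alone, and the F locus value and the strand contrast include it. A probe of C430049B03Rik inside the interval rose by 1.77, and the strands differed by −0.55 (F minus R, adjusted p = 0.0314).

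Among loci measured on all 6 arrays, the largest falls were smaller than the largest rises. The largest fall, at chr5:104998375-105041300 R, rests on 1 probe that read −0.67, −1.16 and −0.75 in WT and −2.07, −2.32 and −2.63 in AROM+, a difference of −1.48 (SE 0.19, adjusted p = 0.00418). By the positions of gene probes its nearest gene is Thoc2l at 48.4 kb, which gave −0.36. The probe of the locus itself is the complement of the start of Zfp33b, a zinc finger gene, from base −19 to base 40 counted from the start. The RefSeq window of that gene on GRCm38.p6, chr5:104571422-104571721 on the plus strand, is printed with the 60 bases complementary to the probe in capitals.
Zfp33b promoter: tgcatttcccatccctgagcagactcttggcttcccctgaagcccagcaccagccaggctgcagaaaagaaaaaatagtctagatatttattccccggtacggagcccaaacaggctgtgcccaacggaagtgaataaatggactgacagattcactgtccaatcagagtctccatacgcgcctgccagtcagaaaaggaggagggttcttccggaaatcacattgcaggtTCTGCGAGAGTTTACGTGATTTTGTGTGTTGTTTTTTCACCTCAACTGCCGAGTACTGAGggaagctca

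At chr17:6324860-6326762 F the signal was −1.10, −1.34 and −0.94 in WT and −2.37, −2.24 and −2.69 in AROM+. The difference of −1.31 (adjusted p = 0.0039) was carried by 3 probes, from −1.65 to −0.83, and Tmem181a, 19.1 kb away, was lower by −0.48 (adjusted p = 0.0164). The locus chr4:131903928-131909578 R read −0.84, −1.18 and −0.76 in WT and −1.97, −2.08 and −2.56 in AROM+, a difference of −1.28 (adjusted p = 0.0052). A probe of Snhg3, a host gene of small nucleolar RNAs, lies inside this interval and was lower by −0.40. Groups were apart at both loci by more than the spread within either.

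Both strands of chr13:74521146-74528671 were lower beside Zfp72, a zinc finger gene 11.8 kb away that was lower by −0.66 (adjusted p = 0.00557). The F locus read −4.19, −4.89 and −4.31 in WT and −5.49, −5.75 and −6.03 in AROM+, a difference of −1.30 (adjusted p = 0.00675). The R locus read −4.80, −5.55 and −4.84 in WT and −5.91, −6.64 and −6.56 in AROM+, a difference of −1.31 (adjusted p = 0.0109). The probes are complementary over the 50 bases printed above, and both have WT replicate 2 as the lowest WT value.

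Of the other falls, chr12:4409025-4437250 F read −3.79, −4.22 and −3.79 in WT and −4.95, −5.29 and −5.61 in AROM+, a difference of −1.35 (adjusted p = 0.00522). The locus chr12:53708656-53729799 F differed by −1.27 (adjusted p = 0.0082), and its neighbour Arhgap5, at 40.5 kb, was not called (−0.35, adjusted p = 0.0932).

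The loci chr4:89048647-89066563 F (−1.46, adjusted p = 0.0196) and chr15:90156889-90184564 R (−1.42, adjusted p = 0.0352) each rest on 1 of 3 probes and had wide WT values, from −5.74 to −4.25 and from −3.87 to −2.14. With all probes averaged the first gave 0.07 (adjusted p = 0.893) and the second −0.34 (adjusted p = 0.246). Leaving out WT replicate 1 ended both calls (−1.28 and −0.95), as did leaving out WT replicate 3 (−1.17 and −1.50) and leaving out AROM+ replicate 2 (−1.42 and −1.39). Leaving out AROM+ replicate 3 ended the second alone (−1.25). These falls therefore depend on single probes and single testes.

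Some loci were above background in one genotype only and have a bound in place of a fold, the mean of the bright group over the lowest level that could be told from background. Of these, 3 loci were seen in AROM+ only and 16 in WT only. They passed the filter through the group in which they are high, so that bounds are given without a test. Their fitted differences carry the same limit, and the counts of called loci above include 3 of those seen in AROM+ only and 12 of those seen in WT only. The locus chr1:84961943-84962737 F was at least 3.52-fold higher in AROM+ (means −7.13 and −5.04). The locus chr1:87343550-87362900 F was at least 2.14-fold higher, and its probe shares 50 bases with that of a transcript without a symbol, which rose by 1.03. The locus chr5:53910499-53913968 R was at least 1.57-fold higher. Its fitted difference missed the threshold with normexp background correction and spike-in scaling and without WT replicate 1 or 3.

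In the other direction, chr3:37797734-37891650 F was at least 2.62-fold lower in AROM+ (means −5.52 and −7.25). The locus chr4:119133352-119134522 R was at least 2.21-fold lower, chr2:94063213-94063624 F at least 2.16-fold (−0.36, adjusted p = 0.06, with all its probes averaged) and chr2:181022680-181027214 R at least 1.73-fold. The locus chr1:166985480-166986024 R was at least 2.08-fold lower, and 4930568G15Rik, 8.14 kb away, was lower by −1.13. Each of these bounds rests on 1 kept probe.

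Intervals named on both strands allow a test of one strand against the other. The labels do not say which strand the labelled cDNA carried, so F and R are the letters of the file. Of 931 intervals with both loci tested, 38 were higher on both strands, 155 lower on both, 5 opposite, 334 called on one strand alone and 399 on neither. The differences of both strands correlated with r = 0.62 over the 931 intervals, which share arrays and in some cases complementary probes. The difference itself differed between the strands in 146 intervals (15.7%), with F above R in 66 and R above F in 80. Leaving out WT replicate 3 left 76 such intervals, and leaving out WT replicate 1 left 86.

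**Figure D4:**
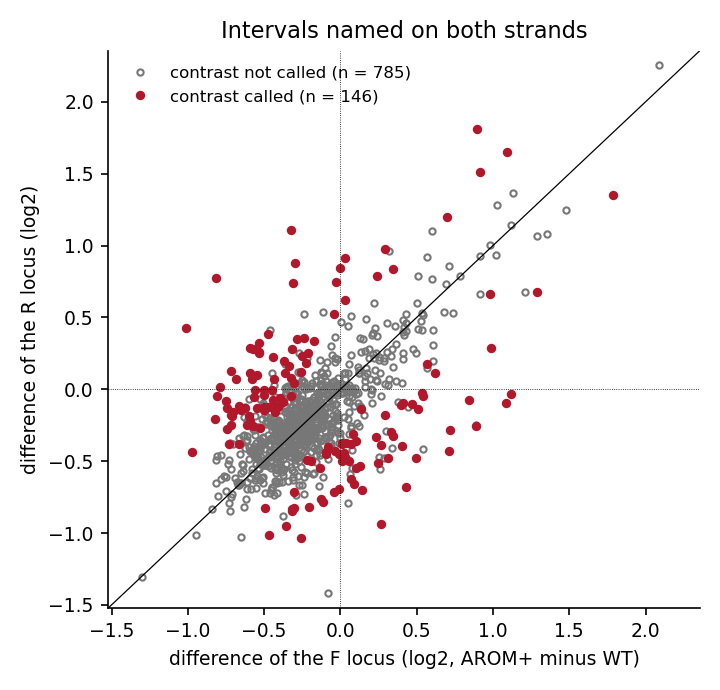
Difference AROM+ minus WT (log2) of the R locus (vertical axis) against that of the F locus (horizontal axis) for 931 intervals, with filled points where the contrast between the strands was called (n = 146) and a diagonal line of equal differences. Most points lie near the diagonal below 0 on both axes.

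The clearest case of opposite change was chr19:61226425-61270975. Its F locus read −3.12, −2.98 and −2.71 in WT and −3.82, −3.97 and −4.05 in AROM+ and was lower by −1.01. Its R locus read −1.18, −1.24 and −1.09 in WT and −0.68, −0.71 and −0.85 in AROM+ and was higher by 0.42. The strands differed by −1.43 (SE 0.11, adjusted p = 0.00224), and the call of the R locus was lost under spike-in scaling (0.37, adjusted p = 0.122). A probe of Gm7102 inside the interval lies on the R strand and was lower by −0.69 (adjusted p = 0.0118), opposite in direction to the R locus.
chr19:61226425-61270975 F: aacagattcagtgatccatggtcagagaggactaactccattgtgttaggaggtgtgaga
chr19:61226425-61270975 R: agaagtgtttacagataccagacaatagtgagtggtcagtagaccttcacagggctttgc

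At chr11:53592946-53637922 the R locus rose by 1.11 while the F locus was not called (−0.33, adjusted p = 0.0613), and the strands differed by −1.43 (SE 0.12). The 3 kept R probes gave 0.48, 1.12 and 1.73, the last from a probe above background on 0 of 3 WT arrays, and the brightest probe alone gave 0.48. At chr19:59498190-59531390 the R locus was lower by −0.93 and the F locus not called (0.26), a contrast of 1.20. Each strand rests on 1 of 5 probes. That of R was above background on 3 WT and 2 AROM+ arrays, so it passed the filter through WT alone. A probe of Emx2os, inside on the R strand, was not called (−0.14, adjusted p = 0.503). At chr14:106250821-106261843, 30.0 kb from Spry2, the F locus rose by 1.09 on 1 of 5 probes and the R locus gave −0.09, a contrast of 1.18. The F call was lost with all probes (0.36, adjusted p = 0.114), and so was the R call at Emx2os (−0.14, adjusted p = 0.345). The largest contrast, at chr6:126766225-126771309, was also the least certain (−1.59, SE 0.53, adjusted p = 0.0474). There the F locus, read by 1 of 3 probes, was lower by −0.81, and the R locus (0.78, SE 0.63) was not called. The R locus read −7.40, −4.65 and −5.53 in WT and −5.17, −5.14 and −4.93 in AROM+. Its probes that gave 0.76 and 1.30 were each above background on 2 of 3 WT and 3 of 3 AROM+ arrays. They passed the filter through AROM+ alone, and the contrast includes them.

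The name intergenic was set against the positions of gene probes. No probe of a RefSeq-named gene lay inside 3854 loci (83.7%). One lay inside 475 loci on the same strand, in 193 of them from a protein-coding gene, and inside 278 on the opposite strand alone. A run of at least 20 bases was shared with the probe of another feature, in either orientation, at 420 loci. Without these 420, 3554 tested loci gave 190 higher and 1222 lower. Without loci that hold a gene probe as well, 3122 tested loci gave 156 higher and 1073 lower, while the 831 loci left out gave 91 and 255.

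Differences of loci correlated more closely with those of a gene probe inside them than with those of genes beside them. Over 336 loci with a gene probe inside on the same strand the differences of locus and gene correlated with r = 0.63, and over 255 with one on the opposite strand with r = 0.58. Over 2256 loci whose nearest gene lay outside, within 50 kb, r was 0.15, beside 0.19 over 13759 pairs of neighbouring genes. These are descriptions across loci of the same 6 arrays. Of 127 higher loci with an outside neighbour, 40 had a higher neighbour (31.5%), and of 749 lower loci 248 had a lower one (33.1%). Among gene pairs the shares were 26.4% and 34.3%.

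Some called loci lay near each other. Placing called loci at most 100 kb apart together gave 62 groups of at least 4, with 287 of the called loci, of which 38 groups were all lower, 5 all higher and 19 mixed. Most called loci lay outside such groups, and the spacing of all tested loci was not set against it. The groups with 7 lower loci were chr1:138442536-138632310 (−0.82 to −0.31), chr17:22332475-22472588 (−0.66 to −0.47) and chr8:19678750-20038750 (−1.21 to −0.36). A group of 6 on the X chromosome, chrX:120562611-121038407, ran from −0.89 to −0.58. Many loci overlap: the 4607 loci form 3362 stretches on one strand, with up to 12 loci in one. Counted by stretch, 215 of 2977 tested held a higher locus and 1175 a lower one, 23 of them both.

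Long noncoding RNA genes with a name were read from a fixed list of 49 genes, of which 28 had a probe and 22 were tested. Of these 3 were higher (13.6%), 4 lower (18.2%) and 15 not called, beside 14.7% higher and 31.0% lower over all features. The median difference of 0.04 changed sign under spike-in scaling (−0.01). Meg3, a maternally expressed imprinted RNA, rose by 1.36, Neat1, the scaffold of paraspeckles, by 0.61 (adjusted p = 0.0164) and Peg13, a paternally expressed RNA, by 0.60 (adjusted p = 0.00534). Gm2694 (−0.50, adjusted p = 0.00688), Airn (−0.47, adjusted p = 0.0196), Mirg (−0.44) and Snhg3 (−0.40, adjusted p = 0.0171) were lower. Airn is the antisense RNA of the imprinted Igf2r gene. Its call was lost with all probes (0.02, adjusted p = 0.903), with the brightest probe (−0.22, adjusted p = 0.19), and on leaving out AROM+ replicate 1 (−0.42), AROM+ replicate 2 (−0.42) or WT replicate 3 (−0.41). That of Snhg3 was lost with quantile normalization (−0.22, adjusted p = 0.112), spike-in scaling (−0.46, adjusted p = 0.078), and on leaving out WT replicate 1 (−0.37) or WT replicate 3 (−0.39). That of Mirg was lost with spike-in scaling (−0.50, adjusted p = 0.0571). Malat1, an abundant nuclear RNA, was not called (0.16, adjusted p = 0.562).

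The imprinted region from Dlk1 to Mirg on chromosome 12, mapped after its values were seen, holds 17 loci over 289 kb. Its noncoding RNAs are known to be transcribed from the maternal chromosome and to host many small RNAs. Meg3 read −5.07, −5.49 and −5.33 in WT and −3.65, −4.05 and −4.11 in AROM+ (1.36, SE 0.16, adjusted p = 0.00393). Mirg, at the far end, read −0.97, −1.07 and −1.03 in WT and −1.39, −1.44 and −1.57 in AROM+ (−0.44, adjusted p = 0.00979). Meg3 and Mirg thus moved in opposite directions, without overlap of the groups in either, as in 59.2% of all features. Rtl1, which is transcribed from the other strand and the paternal chromosome, was lower by −0.40 (adjusted p = 0.0111), and Dlk1 was not called (−0.15, adjusted p = 0.629).

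The 3 loci before Meg3 did not pass the test. They were both strands of chr12:110738120-110769295, with 0.06 on F (adjusted p = 0.8) and −0.31 on R (adjusted p = 0.0652), and chr12:110769101-110771113 F with −0.21 (adjusted p = 0.236). After Meg3, 5 of 11 tested loci were lower and 1 higher. Over the whole region 5 of 14 tested loci were lower and 1 higher. Over all tested loci 33.6% were lower and 6.25% higher, and over all features 31.0% and 14.7%. The split at Meg3 is a description. The F locus chr12:110845020-110850870 read −4.80, −4.51 and −4.55 in WT and −5.53, −5.28 and −5.17 in AROM+, a difference of −0.70 (adjusted p = 0.0085). The locus chr12:110909258-110913909 F, with 1 of 3 probes kept, was higher by 0.51 (adjusted p = 0.0287). Of the 42 kept locus probes of the region, 20 were called lower and 1 higher.

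**Figure D5:**
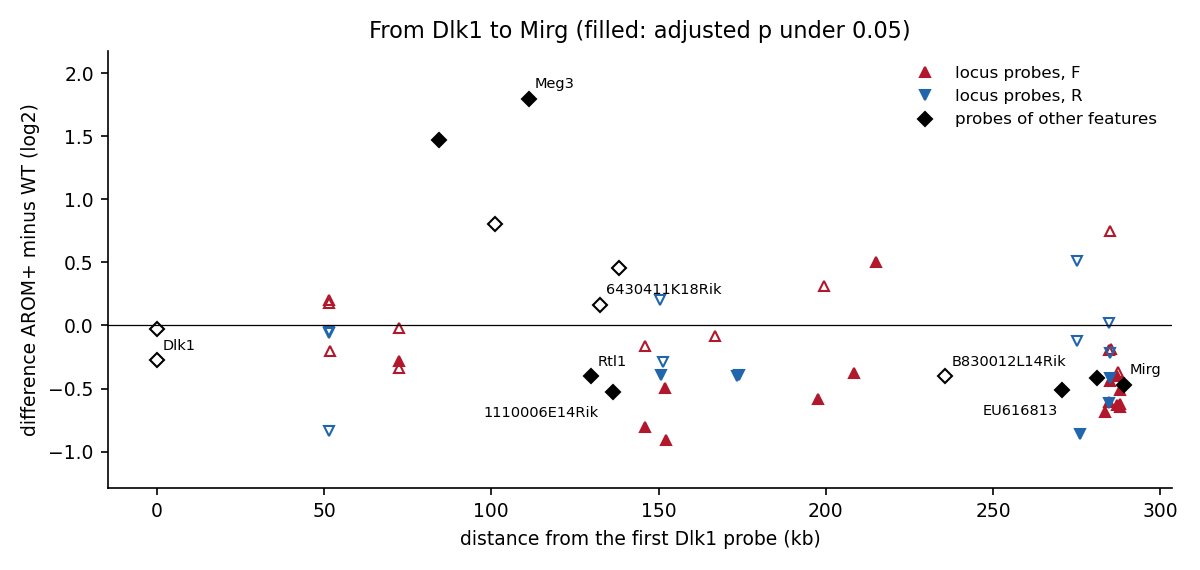
Difference AROM+ minus WT (log2, vertical axis) of each kept probe by its distance in kb from the first Dlk1 probe (horizontal axis), with locus probes as triangles by strand and probes of other features as diamonds, filled where the adjusted p was under 0.05. Meg3 probes lie above 0, and of the 42 locus probes 20 were called lower.

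The probes of 13 loci shared at least 20 bases with a RefSeq microRNA hairpin, in either orientation. Hairpins are the precursor folds from which microRNAs are cut, and these probes read the long transcript or its complement, not the mature microRNA. Of the 13 loci 1 was higher and 3 lower, from −0.79 to 0.52, beside 14.7% higher and 31.0% lower over all features. The higher one, chr11:116936834-116948799 R (0.52, adjusted p = 0.0482), includes a probe above background on 0 of 3 WT and 3 of 3 AROM+ arrays. Its probe with hairpin bases was not called (0.39, adjusted p = 0.609). For 2 of the lower loci, 3 probes are printed with the hairpin bases in capitals, since they can be tied to a known transcript.
chr12:110973190-110987668 F with Mir410: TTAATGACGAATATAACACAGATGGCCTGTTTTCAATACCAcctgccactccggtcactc
chrX:50087925-50101700 R with Mir363: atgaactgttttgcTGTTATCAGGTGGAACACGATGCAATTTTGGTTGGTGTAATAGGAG
chrX:50087925-50101700 R with Mir92-2: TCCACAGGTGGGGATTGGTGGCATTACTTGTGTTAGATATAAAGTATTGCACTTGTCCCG

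The Mir410 locus lies in Mirg and read 0.82, 0.90 and 0.79 in WT and 0.27, 0.38 and 0.05 in AROM+, a difference of −0.61 (SE 0.11, adjusted p = 0.00753) with all 3 probes lower. The X-linked locus with Mir363 and Mir92-2, a paralogue of the Mir17 cluster, read −5.14, −5.14 and −4.91 in WT and −6.25, −5.64 and −5.65 in AROM+ on the R strand, a difference of −0.79 (adjusted p = 0.0155). Of its 7 probes 3 were kept. The printed Mir363 probe was lower by −0.61 (adjusted p = 0.0121), and the printed Mir92-2 probe was not called (−0.26, adjusted p = 0.057). The last, which shares 21 bases with Mir92-2, gave −1.49 and was above background on 3 WT and 0 AROM+ arrays. That probe passed the filter through WT alone, and the locus value and the strand contrast include it. The F strand of the locus was not called (−0.12, adjusted p = 0.293), and the strands differed by 0.67 (adjusted p = 0.0204). The locus chr14:115423660-115463160 R, opposite Mir18 in the host gene Mir17hg, read −2.77, −2.91 and −2.71 in WT and −3.12, −3.06 and −3.10 in AROM+, a difference of −0.30 (adjusted p = 0.0336), while Mir17hg gave 0.02. Of the 9 kept probes of that R locus, from −1.14 to 0.21, 1 was called lower. The probe opposite Mir18 gave −1.14 and was not called (adjusted p = 0.0869). Groups were apart at each of these 3 lower loci, as they were at 53.2% of all tested loci and in 59.2% of all features.

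Probes of 121 loci lay whole within a RefSeq promoter window (GRCm38.p6), from 250 bases before to 50 after the start of a gene, 67 of the loci opposite to the gene and 57 along it. Of 117 tested, 49 were lower (41.9%) and 7 higher (5.98%), with a median of −0.28. Over all tested loci 33.6% were lower and 6.25% higher, with a median of −0.26. Over 76 pairs of such a probe and its gene the differences correlated with r = 0.09. Of 39 pairs with a lower probe 12 had a lower gene and 5 a higher one. These shares lie near the 31.0% lower and 14.7% higher of all features. Of the 7 probes of chr11:116936834-116948799 R, 3 lie opposite the promoter of Snhg20. The locus was picked after its values were seen, for the widest range between its probes. The one nearest the start of the gene, printed here, rose by 3.71. That probe was above background on 0 of 3 WT and 3 of 3 AROM+ arrays, so it passed the filter through AROM+ alone. The locus value, called higher (0.52, adjusted p = 0.0482), includes it. The other promoter probes were lower by −0.45 (adjusted p = 0.0263) and −0.64 (adjusted p = 0.0281), the last above background on 2 of 3 AROM+ arrays.
chr11:116936834-116948799 R: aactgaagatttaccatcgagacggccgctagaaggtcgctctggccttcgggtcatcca

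Probes of one locus did not always move together. Of 1743 loci with at least 3 kept probes, all probes had the same sign in 64.7%, in 91.7% of the 661 lower ones and in 79.1% of the 139 higher ones. In 64 of 2661 loci with at least 2 kept probes, probes were called in both directions. Of the 3 loci named for having most probes, chr13:41337973-41379821 R was lower by −0.49 (adjusted p = 0.0152), with 6 of 10 probes called lower. That call was lost with the brightest probe alone (−0.27) and without WT replicate 3 (−0.42). The locus chr12:81217572-81233910 F was not called (0.06, adjusted p = 0.647), 8.49 kb from Zfp36l1, an RNA decay factor gene that rose by 0.49. The locus chr14:22267795-22319045 F was not called either (−0.11, adjusted p = 0.442) but gave −0.46 (adjusted p = 0.01) with the brightest probe alone.

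The longest locus, chr7:39351858-46480344 R, spans 7128487 bases and was read by 1 probe, which gave −2.99, −3.96 and −3.33 in WT and −4.28, −4.56 and −4.78 in AROM+ (−1.11, adjusted p = 0.0152). A value of so long a locus is that of 60 bases within it. In all, 182 loci are longer than 100 kb.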

How the data were processed

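The authors deposited the scanner's spot intensities. Agilent Feature Extraction made them, in version 10.7.3.1 as the file headers have it, or 10.10 as the submitters' processing notes have it. Per the file headers, background had been subtracted from the processed signal. The authors' deposited log2 table was set against these files: a column is the log2 processed signal less 1 constant for the array (slope 1.00), with column medians of −3.12, −3.11 and −3.09 in WT and −3.05, −3.09 and −3.02 in AROM+. Genes were not centred in it.

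Each array had 62976 spots. The 3671 control spots and outlier spots (123 to 192 per array) were left out, and no spot was saturated. The 75th percentile of intensity was 3696 to 5431. Log2 of the processed signal minus that percentile was used. A probe was kept where some group had it well above background on each of its 3 arrays (42638 probes), and kept probes of one name were averaged.

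The comparison used lmFit and eBayes of limma 3.58.1 (R 4.3.3), with Benjamini-Hochberg adjustment over all 28925 features. Strand contrasts were adjusted together with them, over 29856 rows. The fit was tested on simulated data. Each array is a single testis per the labels, so p-values measure the spread between testes, and their precision is limited by the small number of arrays. For a bound, the bright group's mean was set against a floor on every dim array, the dimmest signal that was well above background there, or that of the probe itself if brighter.

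The named loci are those with the 10 largest rises and the 10 largest falls of the called loci that were measured on all 6 arrays and did not overlap between groups, the 5 largest bounds in each direction, the 5 largest called strand contrasts, the 3 loci with most probes, and their nearest genes within 50 kb. Nearest genes were taken from the array's own positions of gene probes. A list of long noncoding RNA genes was added. Members, lists and rules were chosen with earlier results of these data known. Loci on chromosome 18 (180) were counted and not named, and 1 fall that the rule names is not reported here. Gene names and the promoter and hairpin sequences are those of RefSeq (GRCm38.p6), matched by sequence and never by coordinates. Whether a locus is exonic or intronic was not analysed here.

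Replicate numbers did not pair the arrays: deviations of same-numbered arrays correlated at 0.04, −0.17 and 0.04. Alternatives were normexp background correction (offset 50), quantile normalization, centring on the median feature, spike-in scaling (8 probes), the deposited log2 table, a filter on all 6 arrays or none on dim probes, the brightest probe, the replicate block, eBayes with a trend, and leaving out each array.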

Additional observations from a re-analysis of the deposited data

How the results depend on the processing

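Of the 3953 tested loci 247 were higher and 1328 lower, with a median of −0.26. Spike-in scaling lowered the count of higher loci to 139, and no filter on dim probes lowered that of lower loci to 851 and moved the median to −0.18. In a set chosen after seeing the data, without loci that hold a gene probe or share bases with one, 156 were higher. Leaving out each array gave 157 to 224 higher and 650 to 1271 lower loci, medians of −0.29 to −0.21 and 76 to 121 called strand contrasts (146 with all arrays). Without WT replicate 3 the counts were 157, 650 and 76, and without WT replicate 1 they were 167, 821 and 86. The other settings listed under the processing stayed within 1.5 times these counts: normexp gave 201 and 1229, quantile normalization 288 and 1078, and the deposited values gave 262 and 1155. With the replicate block 211 were higher and 1059 lower. The numbers do not pair the testes, so this is no test of a weaker effect. One named locus with a call changed sign, chr4:89048647-89066563 F, from −1.46 to 0.0716 with no filter. The cause of these changes was not tested. Loci above background in one group only have bounds, and 654 loci were not tested.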
